A study of Homo sapiens with 12 samples.

Results

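The comparison described here sets 786-O cells against PC3 cells while both shared their medium with myoblasts, and it covers 6 of the 12 arrays of the study, 3 for each line. Each array measured total RNA on an HG-U133 Plus 2 oligonucleotide chip. 786-O is a human line from a renal carcinoma without working VHL, the protein that marks hypoxia-inducible factors for destruction when oxygen is present. PC3 is a human prostate carcinoma line derived from a bone metastasis, and it is known to grow without androgen and to lack alpha-catenin. In both co-culture groups, 30000 cancer cells had been seeded in the lower chamber of a transwell plate 6 h before 10000 primary myoblasts were added to the upper chamber, and RNA was taken 12 h later, although the series text also speaks of a 1:1 ratio of the cells. The myoblasts, the muscle progenitors that fuse into muscle fibres, came from the limbs of 5-day-old C57BL/6-Tg GFP mice, so the cancer cells were human and their neighbours murine. The other 6 arrays held 786-O cells alone and PC3 cells alone, with 3 in each group, and entered the fit for its estimate of spread and for the question of whether the difference between the lines changed with co-culture. 786-O was grown in RPMI1640 and PC3 in F-12K, so the line and its medium cannot be told apart.

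Values are log2 of the deposited signal intensities, and differences are log2 signals of 786-O minus those of PC3 unless stated otherwise, with standard errors from a limma fit and Benjamini-Hochberg adjusted p-values. A gene with an adjusted p under 0.05 is said to be higher in 1 of the lines. A log2 signal of 4 (a signal of 16) was taken as the floor, and where the mean of 1 line lay under it the difference is also given as a lower bound on the fold against that floor. Across the 12 arrays the median signal ran from 5.46 to 5.73, and the share of probe sets at 32 or more from 39.67 to 40.18%. Replicate 2 of co-cultured 786-O stood apart from its group. Its 3' to 5' signal ratio was 7.22 for ACTB and 1.84 for GAPDH, against 3.08 to 4.24 and 1.07 to 1.29 on the other 11 arrays, and its correlation with its group was the lowest at 0.9913. The part of this array in the results was not tested beyond leaving it out. Whether the repeats came from separate cultures is not in the labels, and the p-values reflect no more than the spread among these arrays.

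Genes that tell the lines apart followed the labels in part. The kidney transcription factor PAX8 averaged 10.37 ± 0.41 (SD, n = 3) in 786-O and 3.97 ± 0.10 in PC3, and PAX2, a related regulator of kidney development, averaged 5.28 and 2.10. EPCAM, an epithelial surface protein, averaged 12.30 in PC3 and 3.24 in 786-O, and HOXB13, a regulator of the prostate, 8.48 and 2.11. KLK3 and TMPRSS2, both androgen-related genes, had group means between 2.10 and 2.19 in both lines.

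Several markers went against the entry made for them. EPAS1, which encodes HIF-2alpha, was higher in PC3 by 1.55 ± 0.09 (SE, adjusted p = 1.41e-08). HIF1A, whose protein is reported as lost in 786-O, averaged 12.94 there and 14.41 in PC3. CDKN2A, reported as deleted in 786-O, averaged 11.25 ± 0.05 (SD) in 786-O and 11.16 ± 0.02 in PC3 (adjusted p = 0.172). With probe sets ending in _x_at or _s_at left out, the CDKN2A difference was 0.804 toward 786-O (adjusted p = 9.74e-05). KRT8, entered for PC3, was higher in 786-O by 0.92, and its partner KRT18 overlapped between the lines at means of 13.88 and 13.91. The epithelial cadherin CDH1, also entered for PC3, averaged 2.43 there and 2.14 in 786-O, under the floor in both. CD44, a further entry for PC3, averaged 14.03 there and 14.15 in 786-O.

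**Figure D1:**
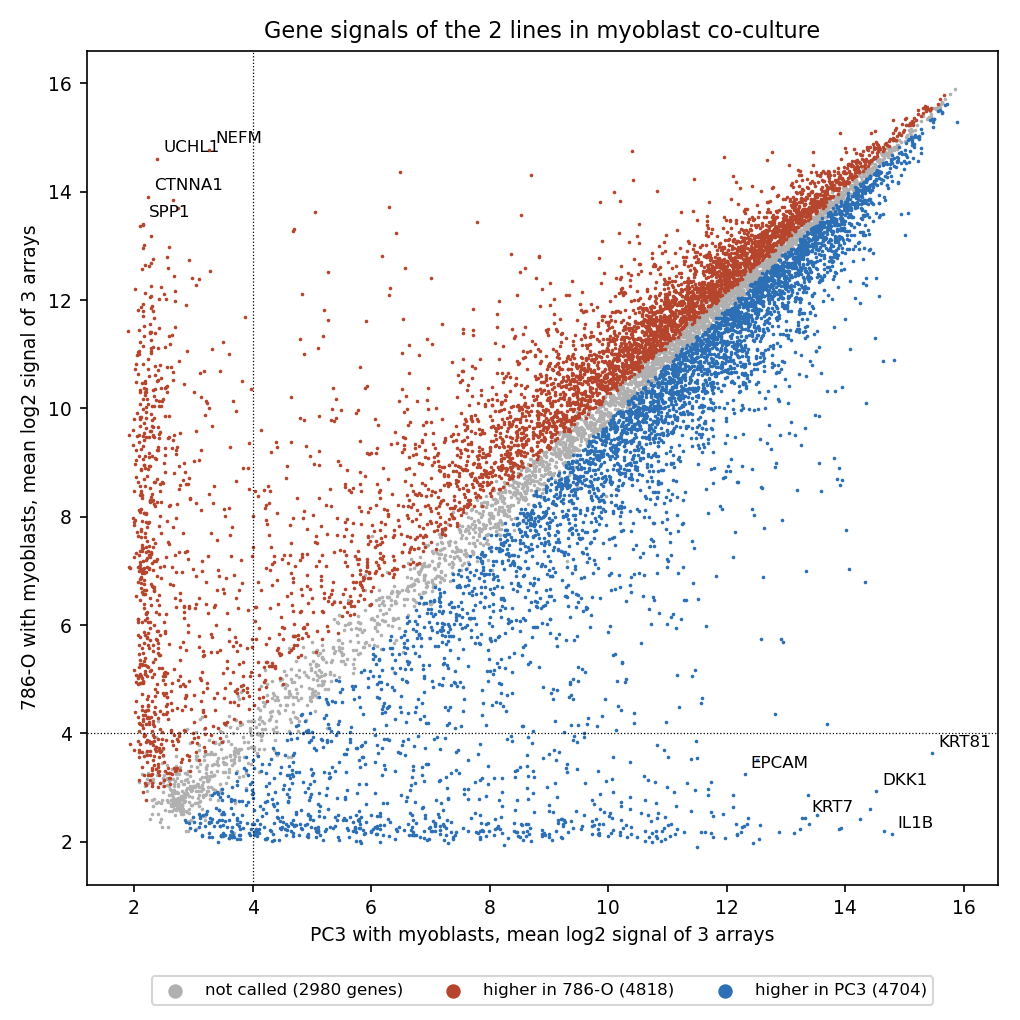
Mean log2 signal of 3 arrays for each of 12502 genes in co-cultured PC3 (horizontal) and co-cultured 786-O (vertical), with genes called in each direction coloured and the floor at 4 dotted. The 4818 and 4704 called genes fill both sides of the diagonal, and a band of genes along each axis lay under the floor in 1 line alone.

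In co-culture the lines differed across most of the measured genes. Of 12502 genes, 9522 were called (76.2%), with 4818 higher in 786-O (38.5%) and 4704 higher in PC3 (37.6%). At least 2-fold differences were called for 1990 genes toward 786-O and 2138 toward PC3, together 33.0%, and at least 10-fold differences for 579 and 553. The 6 arrays did not overlap between the lines for 9598 genes (76.8%). Another group of 697 called genes lay above the floor in 786-O with the PC3 mean under it, and 618 showed the converse, which the plot of both lines' means displays as the bands along its axes. These shares are the background for every gene group below, since a group with about 3 in 4 members called does not stand apart from the rest of the chip. Without replicate 2 of co-cultured 786-O, 4804 and 4946 genes were called.

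The genes with the largest differences were bright in 1 line and mostly under the floor in the other. All 15 of the largest toward 786-O had a PC3 mean under the floor, and 14 of the 15 toward PC3 had a 786-O mean under it. NEFM, a neurofilament subunit, gave 14.75, 14.81 and 14.77 in 786-O and 3.07, 3.72 and 2.98 in PC3, at least 1760-fold more in 786-O (adjusted p = 9.29e-13). UCHL1, a ubiquitin hydrolase of neurons, gave 14.61, 14.56 and 14.65 against 2.39 on all 3 PC3 arrays, at least 1560-fold. Alpha-catenin (CTNNA1), which ties cadherins to actin, gave 13.86, 14.07 and 13.80 against 2.22, 2.19 and 2.30, at least 960-fold. For these 3 genes every 786-O array lay above every PC3 array by a wide margin.

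The secreted matrix protein osteopontin (SPP1), a ligand of integrins, averaged 13.41 in 786-O and 2.15 in PC3, at least 680-fold. Carbonic anhydrase 2 (CA2), which interconverts carbon dioxide and bicarbonate, differed by at least 832-fold, and cyclin D2 (CCND2), a driver of the G1 phase, by at least 584-fold. The others were PTGFRN, RFLNB, BCAT1, IGFBP7, SLFN11, BTG3, SALL1, CADM1 and LIN28B, which differed by at least 414-fold to at least 666-fold. SALL1 is a transcription factor of kidney development, LIN28B blocks maturation of let-7 microRNAs, and SLFN11 sensitizes cells to DNA-damaging drugs.

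Toward PC3, the hair keratin KRT81 gave 15.50, 15.43 and 15.44 against 3.63 on all 3 arrays of 786-O, at least 2810-fold more in PC3 (adjusted p = 1e-11). IL1B, the precursor of the inflammatory cytokine interleukin-1beta, gave 14.82, 14.81 and 14.71 in PC3 and 2.12, 2.14 and 2.15 in 786-O, at least 1760-fold. PI3, the elastase inhibitor elafin, gave 14.64, 14.68 and 14.66 against 2.24, 2.18 and 2.16, at least 1620-fold. The arrays did not overlap for any of the 3. DKK1, a secreted inhibitor of Wnt signalling, differed by at least 1460-fold, although its 786-O arrays were spread from 2.21 to 3.85. The binding protein IGFBP4 differed by at least 1360-fold, the proteoglycan SRGN by at least 1210-fold and the trefoil peptide TFF1 by at least 977-fold. PLAT, tissue plasminogen activator, was the 1 gene of the 15 with a 786-O mean above the floor, at 4.18 against 13.69, a 731-fold difference. PRSS3, TSPYL5, CDH11, ADIRF, KRT7, C5orf46 and the activin antagonist FST differed by at least 600-fold to at least 951-fold. All 30 genes were called in the same direction when the lines grew alone. A change of the difference with co-culture was called for 4 of them, NEFM, CADM1, IL1B and ADIRF. For CADM1 and ADIRF the signals that moved lay under the floor. With signals below 16 counted as 16, the CADM1 difference was 8.77 alone and 8.74 in co-culture. That of ADIRF was -9.44 alone and -9.38 in co-culture.

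**Figure D2:**
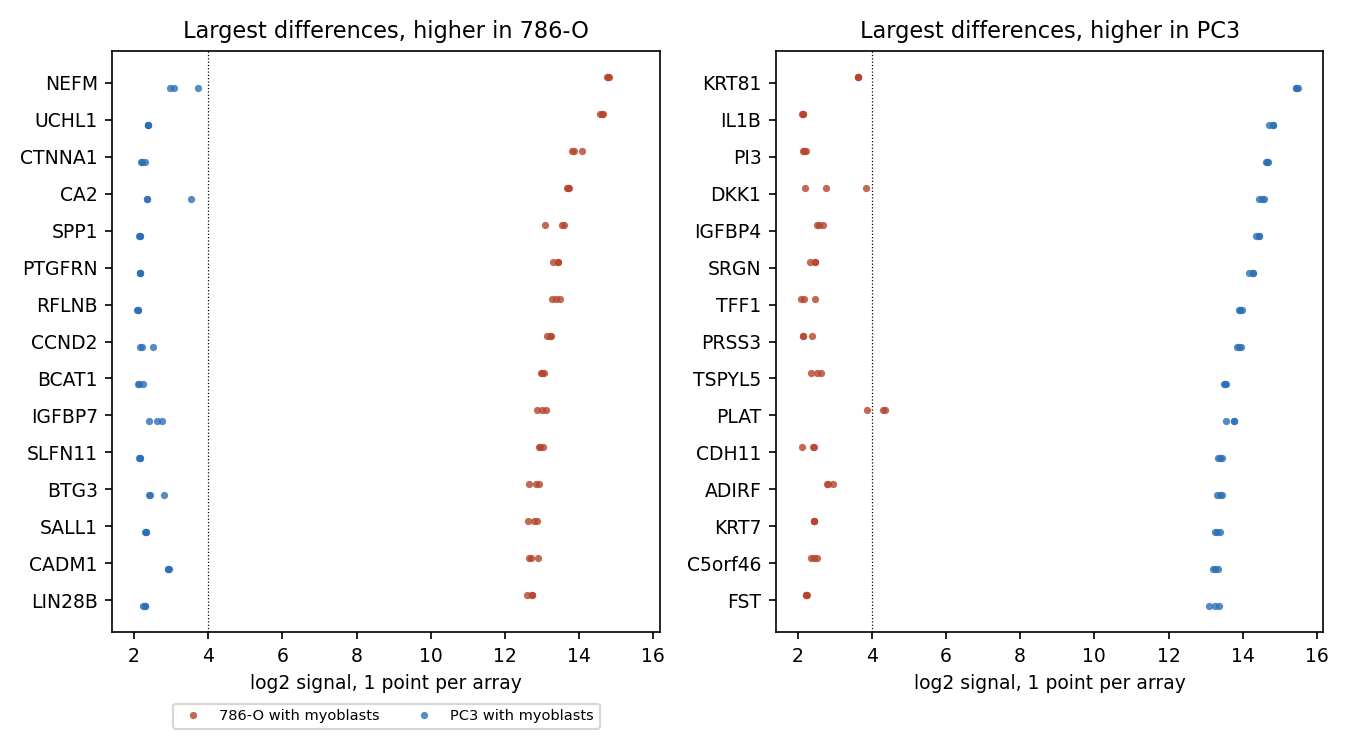
Log2 signal of each of the 6 co-culture arrays for the 15 largest differences toward 786-O (left) and toward PC3 (right), 1 point per array, with the floor at 4 dotted. Points of the line with the low signal lie under or, for PLAT, near the floor, and no gene has arrays of the 2 lines that overlap.

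Gene groups were described with 40 lists, and each count below covers only members that passed the filter on dim signals. A member bright in 1 line passes the filter through that line, so such counts and medians describe the lists and do not test them. Over all genes the median difference was 0.01. With every listed gene kept whatever its signal, 27 of 40 list medians moved by over 1.5 times or changed sign, and 21 of these then lay within 0.1 of 0, so the medians below hold for the brighter members alone.

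Tissue identity genes differed between the lines among those bright enough to pass. Of 28 renal lineage and kidney carcinoma genes, 16 passed, 13 were higher in 786-O and 2 in PC3, with a median difference of 3.07. This median was 2.03 once signals below 16 count as 16, and 0.305 without the filter on dim signals. Besides PAX8, the named members toward 786-O were ceruloplasmin (CP), the kidney cadherin CDH6, the adhesion molecule VCAM1 and the glutathione enzyme GGT1. The carbonic anhydrase CA9, also on this list, ran the other way at 10.00 in PC3 and 2.11 in 786-O, at least 64.1-fold. CP gave 11.93, 11.13 and 11.96 against 2.25, 2.49 and 2.27, at least 204-fold. CDH6 gave 9.54, 9.51 and 9.64 against 2.22, 2.20 and 2.92, at least 47.3-fold. In both genes the lowest 786-O array lay far above the highest PC3 array. The prostate list held 24 genes, of which 11 passed, 3 were higher in 786-O and 6 in PC3, with a median of -1.34 that was -0.017 without the filter. HOXB13, SPDEF (7.84 against 3.80) and FOXA1 (9.65 against 7.31), 3 transcription factors of prostate epithelium, were higher in PC3. The cold channel TRPM8 (7.18 against 2.33) and the Golgi protein GOLM1 (13.81 against 11.70) were higher in 786-O.

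The list of tumour suppressors altered in either line held 7 genes, and all passed. CTNNA1 was among the 3 higher in 786-O, and CDKN2B, an inhibitor of the G1 kinases, was higher in PC3 by 1.62 ± 0.20 (SE, adjusted p = 1.22e-05). MTAP, a methionine salvage enzyme encoded next to CDKN2A, overlapped between the lines at means of 10.74 and 10.83 (adjusted p = 0.381). VHL gave 6.55, 5.23 and 7.57 in 786-O and 5.20, 5.17 and 5.75 in PC3, an overlap that left it uncalled (adjusted p = 0.0582). Without replicate 2 of co-cultured 786-O, the VHL difference was 1.684 and passed the threshold (adjusted p = 0.00116). The median of the list was 1.07, against 1.684 without that array and 0.513 without replicate 3 of the same group.

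HOX genes lie in 4 clusters, HOXA to HOXD, and set position along the body axis, with low numbers used toward the head and high numbers toward the tail. Of 39 listed, 32 passed, 27 were higher in 786-O and 4 in PC3, with a median of 3.22. All 7 HOXD genes that passed were higher in 786-O, and 1 of them lay above the floor in PC3. HOXD10 gave 12.28, 12.43 and 12.02 in 786-O against 2.46, 2.44 and 2.46 in PC3, at least 303-fold. HOXD13 gave 11.80, 11.67 and 11.94 against 2.41, 2.16 and 2.41, at least 223-fold. The groups stood apart on every array for both. HOXD9 (at least 87.4-fold), HOXB8 (at least 58.4-fold) and HOXB2 (at least 37.6-fold) were also under the floor in PC3, and HOXB7 was 71.0-fold higher in 786-O. In the HOXA cluster 8 of 10 were higher in 786-O and 1 in PC3, in HOXB 8 of 9 and 1, and in HOXC 4 of 6 and 2. The 4 genes higher in PC3 were HOXA13, HOXB13, HOXC13 and HOXC5. HOXA13, HOXC13 and HOXC5 fell outside the naming rule and are named here after their values were seen. HOXB13 gave 8.49, 8.27 and 8.68 in PC3 against 2.14, 2.15 and 2.05, at least 22.3-fold.

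**Figure D3:**
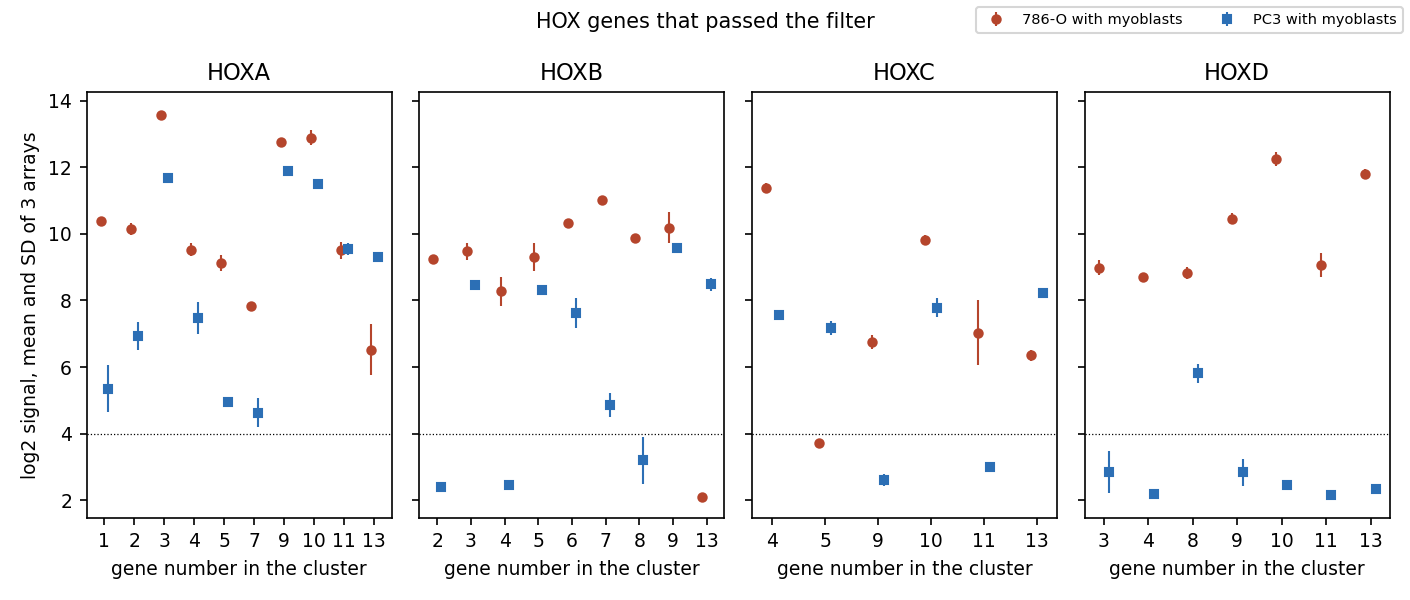
Mean and SD of the log2 signal over 3 arrays for the HOX genes that passed the filter, by cluster and gene number, in co-cultured 786-O (circles) and PC3 (squares), with the floor at 4 dotted. All 7 HOXD genes are higher in 786-O, while the 13th genes of HOXA, HOXB and HOXC are higher in PC3.

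Other patterning transcription factors were more evenly divided, with 26 higher in 786-O and 16 in PC3 among 52 that passed of 72, and a median of 0.24 that was -0.006 without the filter. ID4, an inhibitor of basic helix-loop-helix factors, differed by at least 261-fold and the homeobox gene IRX3 by at least 104-fold toward 786-O. Toward PC3, SIX2, a factor of nephron progenitors, averaged 11.40 against 3.53, at least 169-fold, and the epithelial ETS factor EHF 10.84 against 2.52, at least 115-fold.

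Epithelial junction and keratin genes were more often higher in PC3. Of 39 listed, 29 passed, 18 were higher in PC3 and 7 in 786-O, and the median was -0.80, or -0.292 without the filter. KRT7, a keratin of simple epithelia, gave 13.31, 13.39 and 13.25 in PC3 and 2.44 on all 3 arrays of 786-O, at least 638-fold. ESRP2, an epithelial splicing regulator, differed by at least 98.2-fold in the same direction. Desmoplakin (DSP), which anchors desmosomes to keratins, ran the other way with 12.23, 12.31 and 12.08 in 786-O and 2.02, 1.99 and 2.03 in PC3, at least 295-fold. None of these genes overlapped between the lines.

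Among 30 genes of the mesenchymal state, 20 passed, 12 were higher in 786-O and 3 in PC3, with a median of 0.57 that was 0.069 without the filter. The matrix protein SPARC gave 13.63, 13.58 and 13.67 in 786-O and 5.87, 4.53 and 4.78 in PC3, a 380-fold difference. TGFBI, a TGF-beta-induced matrix protein, was 20.3-fold higher in 786-O, the myosin light chain MYL9 9.64-fold and the transcription factor ZEB2 8.74-fold. S100A4 and fibrillin-1 (FBN1), which also count as mesenchymal markers, were higher in PC3 by 153-fold and 36.5-fold. Vimentin (VIM), a filament of mesenchymal cells, averaged 15.09 in 786-O and 13.91 in PC3, a 2.26-fold difference. Of 23 cadherins and catenins, 10 passed, 3 were higher in 786-O and 4 in PC3, with a median of -0.07. CDH11, known from osteoblasts, gave 13.43, 13.34 and 13.39 in PC3 and 2.13, 2.42 and 2.43 in 786-O, at least 669-fold. The placental cadherin CDH3 (6.65 against 2.12) and plakoglobin (JUP, 7.24 against 4.50) were also higher in PC3, and the catenin-like CTNNAL1 was 1.35-fold higher in 786-O.

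Matrix genes went both ways. Of 41 collagens and interstitial matrix genes, 29 passed, 16 were higher in PC3 and 12 in 786-O. The median was -1.13, against -0.025 without the filter and 1.35 when it was raised to the 75th percentile of signals. LOXL1, an enzyme that crosslinks elastin, averaged 12.36 in PC3 and 2.43 in 786-O, at least 328-fold. The fibrillar collagen COL5A1 differed by at least 112-fold, COL13A1, a transmembrane collagen, by 114-fold and COL5A2 by 66.7-fold in the same direction. Versican (VCAN), a large proteoglycan, gave 13.40, 13.11 and 13.31 in 786-O and 4.55, 4.78 and 4.75 in PC3, a 383-fold difference with no overlap.

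Laminins and other basement membrane genes were higher in PC3 for 9 of the 13 that passed of 17 and higher in 786-O for 4, with a median of -1.54 that was -0.668 without the filter. NTN4, a laminin-related netrin, gave 11.04, 10.95 and 10.99 in PC3 and 6.72, 8.14 and 6.79 in 786-O, a 13.7-fold difference. NID1, which links laminin to collagen, was 8.57-fold higher in PC3 and the laminin chain LAMA3 3.56-fold. LAMA5 was 6.44-fold higher in PC3 through its brightest probe set, but 0.846 higher on the log2 scale in 786-O (adjusted p = 0.0189) when probe sets ending in _x_at or _s_at were left out. LAMC1 and perlecan (HSPG2) were higher in 786-O by 3.37-fold and 3.54-fold. Of 34 integrins and matrix receptors, 25 passed, 11 were higher in each line and the median was -0.02. ITGB4, the integrin of hemidesmosomes, averaged 10.72 in PC3 and 2.39 in 786-O, at least 105-fold. ITGA2, a collagen receptor chain, was 11.6-fold higher in PC3 and the adhesion protein L1CAM 6.92-fold. ITGB3, a chain of vitronectin receptors, gave 10.21, 8.64 and 10.19 in 786-O and 4.23, 2.61 and 3.11 in PC3, at least 48.7-fold. ITGA4 (at least 14.8-fold) and ITGB8 (5.78-fold) were higher in 786-O too.

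Among 32 metalloproteinase and plasminogen system genes, 29 passed, 16 were higher in PC3 and 12 in 786-O, with a median of -0.33 that was 0.175 with the stricter filter. Maspin (SERPINB5) gave 12.24, 12.26 and 12.22 in PC3 and 2.17, 2.18 and 2.17 in 786-O, at least 303-fold. The urokinase inhibitor SERPINB2 differed by at least 54.5-fold and the membrane protease ADAM8 by at least 34.5-fold in the same direction, with ADAM8 spread from 2.70 to 5.47 in 786-O. The gelatinase MMP2 averaged 8.58 in 786-O and 2.78 in PC3, at least 24.0-fold, and its inhibitor TIMP3 8.74 and 2.04, at least 26.7-fold.

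Inflammatory genes were more often higher in PC3. NF-kappaB is a family of transcription factors that inflammatory signals release into the nucleus, where they switch on cytokines, chemokines and adhesion molecules. Many of its chemokine targets attract neutrophils through the receptor CXCR2, and CCL20 attracts lymphocytes and dendritic cells through CCR6. The promoters of the 4 chemokines named below as higher in PC3 are shown because they share the letters searched for NF-kappaB. They are RefSeq sequences of GRCh38.p14 from 250 bases before to 50 bases after the gene start, written 5' to 3' on the gene's strand, and capitals mark GGNNTTTCC on either strand. The regions are chr4:73836428-73836727 (+ strand) for CXCL6, chr4:73869143-73869442 (+) for CXCL1, chr4:74038640-74038939 (-) for CXCL3 and chr2:227813592-227813891 (+) for CCL20.
CXCL6: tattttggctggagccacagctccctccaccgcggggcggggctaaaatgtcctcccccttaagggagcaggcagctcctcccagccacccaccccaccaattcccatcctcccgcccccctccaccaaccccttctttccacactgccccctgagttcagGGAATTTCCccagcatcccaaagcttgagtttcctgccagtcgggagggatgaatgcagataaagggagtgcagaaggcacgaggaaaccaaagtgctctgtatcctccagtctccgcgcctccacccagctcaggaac
CXCL1: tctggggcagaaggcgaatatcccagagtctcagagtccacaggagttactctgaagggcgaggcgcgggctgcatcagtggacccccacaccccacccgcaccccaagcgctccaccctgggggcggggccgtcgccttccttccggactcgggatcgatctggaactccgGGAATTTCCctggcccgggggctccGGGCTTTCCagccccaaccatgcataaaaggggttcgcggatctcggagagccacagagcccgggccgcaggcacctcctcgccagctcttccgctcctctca
CXCL3: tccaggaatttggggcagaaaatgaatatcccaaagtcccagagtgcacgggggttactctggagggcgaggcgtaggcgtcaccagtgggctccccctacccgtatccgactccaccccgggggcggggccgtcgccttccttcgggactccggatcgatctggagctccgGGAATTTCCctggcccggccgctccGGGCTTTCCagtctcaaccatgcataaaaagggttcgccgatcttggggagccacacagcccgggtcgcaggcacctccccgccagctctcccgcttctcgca
CCL20: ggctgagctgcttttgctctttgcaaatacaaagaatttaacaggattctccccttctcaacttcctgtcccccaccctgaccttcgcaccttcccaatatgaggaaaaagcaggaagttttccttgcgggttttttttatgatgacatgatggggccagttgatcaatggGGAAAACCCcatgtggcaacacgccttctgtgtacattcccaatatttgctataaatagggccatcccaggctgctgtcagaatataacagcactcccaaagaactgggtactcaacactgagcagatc

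The match GGAATTTCC began at position -89 of CXCL6 and at -78 of CXCL1 and CXCL3, and GGGCTTTCC lay at -53 of both CXCL1 and CXCL3. CCL20 held GGGTTTTCC on the reverse strand at -79. No match lay in the window of IL1B. These letters occurred in 1710 of 27305 RefSeq promoters (6.3%) and in 17 of the 26 promoters found for the 34 listed NF-kappaB targets (65.4%), a list made of known targets. A match of letters is a description and no evidence of binding in these cells.

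Of the 34 NF-kappaB targets, 30 passed, 20 were higher in PC3 and 4 in 786-O, with a median of -1.96. That median was -5.374 when probe sets ending in _x_at or _s_at were left out. CXCL6 gave 12.64, 12.38 and 12.69 in PC3 and 2.30, 2.32 and 2.29 in 786-O, at least 380-fold (adjusted p = 7.4e-15). CXCL1 gave 14.42, 14.25 and 14.35 in PC3 and 6.75, 6.88 and 6.75 in 786-O, a 187-fold difference (adjusted p = 4.83e-13). CXCL3 gave 14.08, 14.04 and 14.06 against 6.85, 7.63 and 6.60, a 131-fold difference. For all 3 the lowest PC3 array lay above the highest of 786-O, although CXCL1 and CXCL3 are close paralogs whose probes may share targets. The iron-binding lipocalin LCN2 averaged 10.67 in PC3 and 2.49 in 786-O, at least 102-fold. VCAM1, which binds leukocyte integrins, ran the other way with 10.90, 11.39 and 11 in 786-O and 2.45, 3.82 and 3.69 in PC3, at least 137-fold. The background share of genes called toward PC3 was 37.6%.

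The list of chemokines and their receptors held 24 genes, of which 13 passed, 9 were higher in PC3 and 4 in 786-O, with a median of -4.91. Over the 23 members on the table, with no filter, the chemokine median was -0.017. CCL20 gave 10.22, 10.47 and 10.04 in PC3 and 2.14, 2.48 and 2.14 in 786-O, at least 75.8-fold. CXCL5, another ligand of CXCR2, gave 10.72, 10.46 and 10.77 in 786-O and 4.01, 2.62 and 2.71 in PC3, at least 100-fold more in 786-O. The receptor CXCR4, which guides cells toward CXCL12, gave 11.33, 11.23 and 11.10 in 786-O and 2.80, 4.22 and 3.47 in PC3, at least 142-fold. Among 31 cytokines and receptors 28 passed, 14 were higher in PC3 and 11 in 786-O, and the median was -0.27, or -0.091 without the filter. IL33, an alarmin released by damaged epithelium, differed by at least 155-fold toward PC3, IL18 by at least 111-fold, the decoy receptor IL13RA2 by at least 53.3-fold and CSF2, the growth factor GM-CSF, by 41.5-fold. The death ligand TRAIL (TNFSF10) averaged 11.33 in 786-O and 2.60 in PC3, at least 161-fold.

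**Figure D4:**
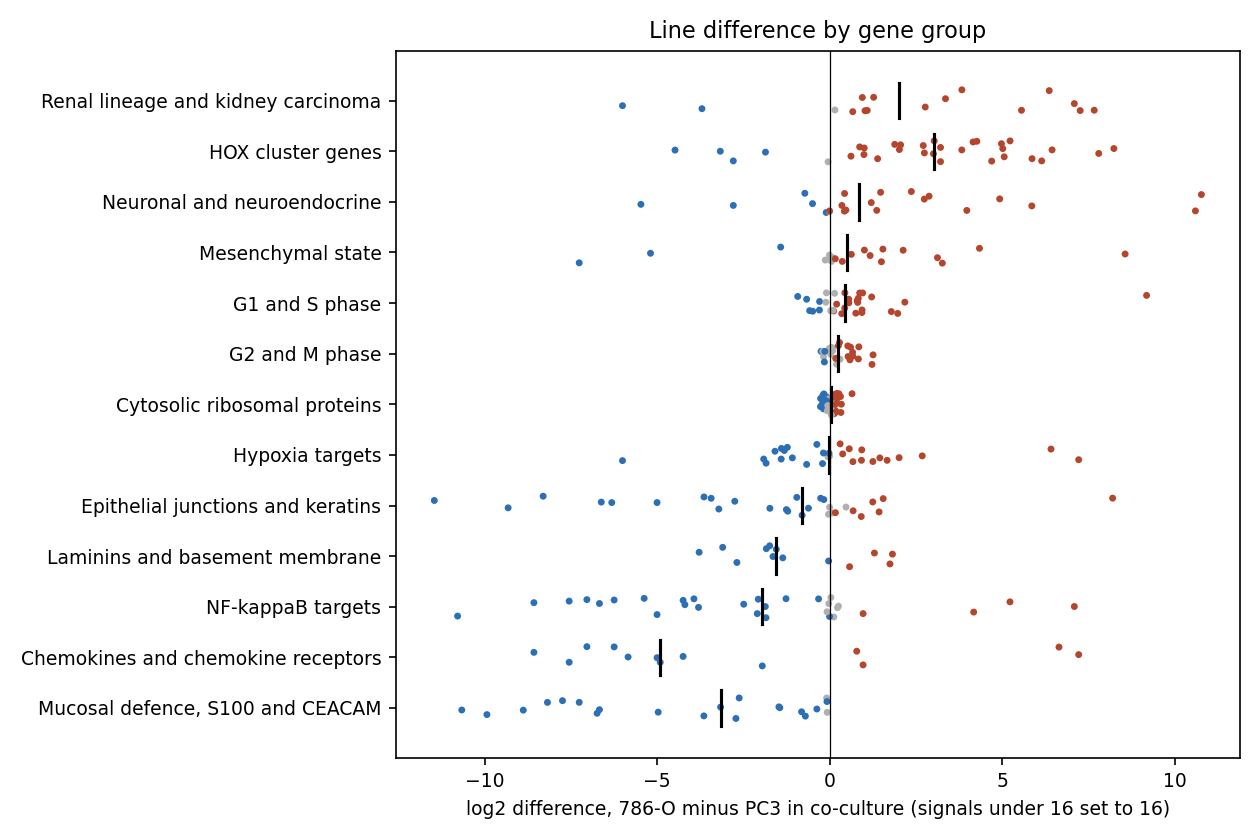
Log2 difference of each gene that passed the filter, 786-O minus PC3 in co-culture with signals under 16 set to 16, for 13 gene groups; coloured points were called, grey points were not, and black bars are group medians. Points of the renal and HOX groups lie mostly to the right of 0, while those of the NF-kappaB, chemokine and mucosal groups lie mostly to the left.

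Interferon-stimulated genes were higher in PC3 for 17 and in 786-O for 9 of the 36 that passed of 38, with a median of -0.41 that was -0.898 with the stricter filter. ISG20, an antiviral exonuclease, averaged 11.58 in PC3 and 4.66 in 786-O, a 121-fold difference. OAS1 (at least 10.2-fold), IRF7 (11.7-fold) and OASL (8.81-fold), which belong to the antiviral response, were higher in PC3. BST2, which tethers virus particles to the cell, was 22.6-fold higher in 786-O and the DNA sensor IFI16 8.18-fold. Of 24 MHC class I presentation genes 22 passed, 9 were higher in 786-O and 7 in PC3, and the median was 0.01. All 6 named members were higher in 786-O, among them the immunoproteasome subunits PSMB9 (11.2-fold) and PSMB10 (1.87-fold) and the regulator NLRC5 (6.85 against 2.10, at least 7.20-fold). TAPBPL (at least 5.63-fold), the peptide trimmer ERAP2 (5.34-fold) and HLA-C (2.37-fold) completed them, and the HLA-C probe set may also detect related HLA genes.

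Genes of mucosal defence, with the S100 and CEACAM families, were listed as a group of 37. Of the 21 that passed, 19 were higher in PC3 and none in 786-O, with a median of -4.85 and of -3.16 once signals below 16 count as 16. Over all 37 members, with no filter, it was -0.438. S100P, a calcium-binding protein of many carcinomas, gave 12.73, 12.98 and 12.93 in PC3 and 2.17, 2.19 and 2.19 in 786-O, at least 470-fold. AGR2, which helps mucins fold, averaged 12.18 in PC3 and 2.15 in 786-O, at least 289-fold, and the protease inhibitor SLPI 11.74 and 2.55, at least 214-fold. None of these arrays overlapped. Together with PI3, TFF1 and S100A4, described above, these genes had their lowest PC3 array above the highest 786-O array.

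Growth factors and their binding proteins were divided, with 25 higher in PC3 and 16 in 786-O among 45 that passed of 53 and a median of -0.64. That median was -0.03 once signals below 16 count as 16, and 0.009 with the 75th percentile filter. IGFBP7 gave 12.99, 13.10 and 12.85 in 786-O and 2.41, 2.63 and 2.76 in PC3, at least 505-fold, whereas its relatives IGFBP4 and IGFBP5 (at least 93.7-fold) were higher in PC3. BMP7, a kidney morphogen, differed by at least 79.1-fold toward 786-O and neuregulin (NRG1), a ligand of ERBB receptors, by at least 56.8-fold. Of 38 receptor tyrosine kinases 28 passed, 12 were higher in 786-O and 13 in PC3, and the median was -0.13. FGFR3, a fibroblast growth factor receptor, gave 12.62, 12.63 and 12.63 in 786-O and 2.26, 2.24 and 2.27 in PC3, at least 395-fold. ERBB4, the neuregulin receptor (at least 24.9-fold), the ephrin receptors EPHA4 (at least 13.4-fold) and EPHA3 (23.1-fold) and IGF1R (20.4-fold) were higher in 786-O as well. MST1R, the receptor RON, averaged 7.82 in PC3 and 2.79 in 786-O, at least 14.1-fold.

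Wnt and Notch pathway genes numbered 45, of which 33 passed, 13 were higher in 786-O and 12 in PC3, with a median of -0.07. LEF1, a nuclear partner of beta-catenin, gave 12.55, 12.69 and 12.50 in 786-O and 2.22, 2.06 and 2.12 in PC3, at least 382-fold. The Wnt receptor FZD7 was 10.5-fold and DKK3 98.3-fold higher in 786-O, while the receptor FZD8 was 35.7-fold and the ligand WNT7A at least 8.44-fold higher in PC3, as was the inhibitor DKK1. Among 34 immediate early and ERK feedback genes 29 passed, 14 were higher in PC3 and 9 in 786-O, and the median was -0.15. The ERK phosphatases DUSP4 (38.5-fold) and DUSP6 (7.61-fold), the inhibitor SPRY4 (12.9-fold) and the ETS factor ETV4 (4.10-fold), all known targets of ERK signalling, were higher in PC3. EGR1, a growth-factor-induced transcription factor, gave 13.68, 13.75 and 13.70 in 786-O and 6.00, 6.34 and 6.55 in PC3, a 170-fold difference, and ID2 was 7.40-fold higher in 786-O.

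YAP and TEAD target genes were higher in 786-O for 12 and in PC3 for 12 of 28 that passed of 29, with a median of -0.08. FOXF2 (at least 17.6-fold), tissue factor (F3, 15.5-fold) and the nucleotidase NT5E (2.84-fold) were higher in 786-O, and TGFB2 (3.51-fold) in PC3. TEAD2 (14.6-fold) and TEAD3 (2.38-fold), which are on this list but are TEAD factors themselves, were also higher in PC3. Nuclear receptors were higher in PC3 for 11 and in 786-O for 8 of 25 that passed of 41, and the median was 0.08. PPARG, a regulator of lipid storage, averaged 12.81 in PC3 and 8.91 in 786-O, a 14.9-fold difference. NR2F1 (8.05-fold), the mineralocorticoid receptor NR3C2 (6.00-fold) and ESR2 (5.09-fold) were also higher in PC3, and NR4A3 (7.20-fold) and RXRA (3.52-fold) in 786-O.

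Oxygen-related genes are of interest because 786-O lacks VHL function. In cells with VHL, prolyl hydroxylases of the EGLN family mark HIF alpha subunits in the presence of oxygen so that VHL can bind them; without it, HIF and its partner ARNT drive genes of glucose use, acid balance and vessel growth. CA9, the surface carbonic anhydrase used as a marker of hypoxia, is shown with its RefSeq promoter of GRCh38.p14, chr9:35673678-35673977 (+ strand), in which capitals mark ACGTG, the core of the hypoxia response element, on either strand.
CA9: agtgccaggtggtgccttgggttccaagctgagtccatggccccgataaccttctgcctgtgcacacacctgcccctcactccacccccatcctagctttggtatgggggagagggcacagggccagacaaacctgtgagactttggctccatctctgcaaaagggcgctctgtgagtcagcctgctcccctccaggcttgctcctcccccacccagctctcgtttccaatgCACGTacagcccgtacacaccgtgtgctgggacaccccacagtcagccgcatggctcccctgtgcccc

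The match lay on the reverse strand at position -18. The letters ACGTG, which are also part of the E-box CACGTG, occurred in 5900 of 27305 promoters (21.6%) and in 12 of the 22 promoters found for the listed hypoxia targets (54.5%). None lay in the window of EGLN3. CA9 gave 10.02, 10.04 and 9.95 in PC3 and 1.96, 2.41 and 1.96 in 786-O, at least 64.1-fold more in PC3 (adjusted p = 1.31e-13). EGLN3, a hydroxylase that HIF itself induces, gave 10.59, 10.25 and 10.42 in 786-O and 2.50, 2.68 and 2.52 in PC3, at least 85.7-fold more in 786-O (adjusted p = 2.73e-12). The 2 genes thus stood on opposite sides with no overlap.

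Of 30 hypoxia targets 29 passed, 13 were higher in 786-O and 14 in PC3, with a median of -0.05. DDIT4, which restrains mTOR, was 4.05-fold higher in 786-O, while ANKRD37 was 3.76-fold higher in PC3. CA12, a relative of CA9, was 3.18-fold higher in 786-O. Among 10 genes of the oxygen sensing machinery 9 passed, 4 were higher in each line and the median was 0.26. That median changed sign to -0.022 with the 75th percentile filter, -0.181 with probe sets averaged and -0.888 without probe sets ending in _x_at or _s_at. EGLN2 (1.81-fold), HIF1AN (1.19-fold) and ARNT (1.21-fold) were higher in 786-O, and EGLN1 (1.23-fold), HIF1A (2.78-fold), EPAS1 (2.92-fold) and ARNT2 (7.20-fold) in PC3. The ARNT difference was -0.181 (adjusted p = 0.158) when the probe sets of a gene were averaged. Glucose uptake and glycolysis genes were higher in PC3 for 13 and in 786-O for 8 of 25 that passed of 26, with a median of -0.14. The glucose transporter SLC2A3 gave 10.97, 10.59 and 10.73 in 786-O and 2.12, 2.55 and 2.98 in PC3, at least 109-fold. Phosphofructokinase PFKP (3.60-fold) and PFKFB3 (1.94-fold) were higher in 786-O, and aldolase C (ALDOC, 16.7-fold), PFKFB4 (4.44-fold) and hexokinase 2 (HK2, 2.32-fold) in PC3.

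Stress and metabolic genes were mixed. Of 34 genes of the ATF4 amino acid response 32 passed, 14 were higher in 786-O and 13 in PC3, and the median was 0.05. The lipoprotein receptor VLDLR differed by at least 29.0-fold, the cysteine pathway enzyme CBS by 52.4-fold and the folate enzyme ALDH1L2 by at least 9.32-fold toward 786-O. NUPR1, a stress-induced chromatin protein, gave 10.21, 10.33 and 10.12 in PC3 and 2.66, 2.67 and 2.66 in 786-O, at least 74.5-fold, and ATF5 was 4.01-fold higher in PC3. Among 31 aldo-keto reductases and NRF2 targets 27 passed, 12 were higher in 786-O and 11 in PC3, with a median of -0.05. AKR1B1, aldose reductase, gave 14.28, 14.34 and 14.48 in 786-O and 7.15, 6.74 and 5.57 in PC3, a 236-fold difference. HMOX1 (2.98-fold) and AKR1B10 (2.78-fold) were higher in 786-O and ALDH3A1 (at least 12.4-fold) and AKR1C1 (2.89-fold) in PC3. UGT1A6, a glucuronidating enzyme, gave 6.47, 2.37 and 7.23 in 786-O, and its call toward 786-O (adjusted p = 0.00587) included replicate 2 close to the PC3 arrays at 2.08 to 2.11.

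Metallothioneins, which bind zinc and copper, have near-identical sequences, so their probe sets may detect one another. Of 17 metallothionein and zinc transport genes 12 passed, 5 were higher in PC3 and 3 in 786-O, and the median was -0.07. MT1E gave 13.16, 11.90 and 13.39 in 786-O and 6.19 on all 3 PC3 arrays, a 98.7-fold difference, while MT1X (1.87-fold), MT2A (1.66-fold), MT1G (1.62-fold) and MT1F (1.44-fold) were higher in PC3. The zinc exporter SLC30A1 was 1.51-fold higher in 786-O. Cholesterol and fatty acid synthesis genes were higher in 786-O for 15 and in PC3 for 9 of 29 that passed of 32, with a median of 0.27 that was 0.046 without the filter. STARD4 (12.6-fold), the elongase ELOVL6 (6.59-fold), INSIG1 (3.17-fold) and SREBF2 (3.14-fold) were higher in 786-O, and ACSS2 (5.64-fold) and FADS2 (3.24-fold) in PC3. Of 25 stem and drug response markers 19 passed, 9 were higher in 786-O and 7 in PC3, and the median was -0.04. The drug efflux pump ABCB1 gave 9.93, 10.14 and 9.91 in 786-O and 2.15, 2.14 and 2.15 in PC3, at least 63.8-fold. The retinal dehydrogenase ALDH1A1 differed by at least 349-fold and CYP1B1 by at least 24.9-fold toward 786-O, while ALDH1A3 (13.5-fold), GSTM1 (11.7-fold) and CYP24A1 (at least 6.40-fold) were higher in PC3. CD44, a hyaluronan receptor, averaged 14.15 and 14.03, a 1.09-fold difference that was called (adjusted p = 0.00437) but not with each array centred on its median (adjusted p = 0.0868).

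Cell cycle genes differed by less but mostly in 1 direction. Of 31 genes of the G1 and S phases all passed, 20 were higher in 786-O and 6 in PC3, with a median of 0.44. That median was 0.134 without probe sets ending in _x_at or _s_at. Of 26 genes of G2 and mitosis all passed, 14 were higher in 786-O and 3 in PC3, with a median of 0.24. Called members made up 83.9 and 65.4% of these lists, against 76.2% of all genes. MCM4, part of the replicative helicase, gave 14.21, 14.42 and 14.26 in 786-O and 12.03, 12.35 and 11.97 in PC3, a 4.54-fold difference. MCM10 (3.94-fold), the G1 kinase CDK6 (3.46-fold), MCM5 (2.33-fold) and the histone mRNA-binding SLBP (1.95-fold) were higher in 786-O. MKI67, the proliferation antigen, was 2.35-fold higher in 786-O and the mitotic kinase PLK1 2.40-fold, with CDC20, CCNB2, KIF11 and CENPF between 1.59-fold and 1.80-fold. Among 34 regulators of growth arrest and apoptosis 30 passed, 12 were higher in each line and the median was 0.05. FAS (7.60-fold), SESN1 (6.77-fold) and BTG2 (9.22-fold) were higher in 786-O, and the survival factor BCL2A1 (26.4-fold) and caspase-1 (CASP1, at least 7.94-fold) in PC3. Cytosolic ribosomal protein genes, 49 of 50 passed, were higher in 786-O for 22 and in PC3 for 13, with a median of 0.05. Their named differences were small, at 1.57-fold for RPL35 and 1.27-fold for RPS15 toward 786-O, and RPL18, RPL7A and RPS20 lay between 1.21-fold and 1.26-fold toward 786-O.

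Neuronal and neuroendocrine genes were higher in 786-O for 16 and in PC3 for 5 of 22 that passed of 33, with a median of 1.74 that was 0.381 without the filter. With signals below 16 counted as 16 the median was 0.84. The adhesion molecule NCAM1 gave 9.93, 9.37 and 10.28 in 786-O and 2.72, 2.50 and 2.53 in PC3, at least 58.2-fold. CNTNAP2, a neurexin relative, differed by at least 30.5-fold and the protocadherin PCDH7 by 15.8-fold in the same direction, while the tubulin TUBB4A was at least 44.3-fold higher in PC3. Of 44 cancer-testis antigens 13 passed, 6 were higher in PC3 and 3 in 786-O, and the median was -0.25, or -0.015 without the filter. MAGEA12 gave 12.16, 12.21 and 12.13 in PC3 and 2.12, 2.13 and 2.12 in 786-O, at least 287-fold. MAGEA6 (19.1-fold), MAGEA3 (12.9-fold) and MAGEA1 (at least 5.90-fold) were higher in PC3, although these paralogs share sequence and their probe sets may detect one another. TEX15, a meiosis gene, was at least 141-fold higher in 786-O.

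Markers of other cells were measured beside these groups. Of 25 muscle genes 24 were on the table and 4 passed, and MYOD1, MYF5, MYOG, DES, PAX7, ACTA1 and CKM, which define myoblasts and muscle fibres, lay between 2.05 and 2.87 on every co-culture array, under the floor in both lines. The chip carries probes for human genes and the myoblasts were murine. Muscle members above the floor were PAX3 (7.78 in 786-O and 2.12 in PC3), MEF2C (10.82 and 12.27) and the troponin TNNT1 (7.25 and 12.11). The log2 of the list's summed signal was 11.08 to 11.26 in co-cultured 786-O and 13.12 to 13.30 in co-cultured PC3, against 11.09 to 11.30 and 13.38 to 13.63 in the lines alone. Of 15 blood, endothelial and fibroblast markers 14 were on the table and 2 passed. PECAM1, known from endothelium, gave 12.10, 12.32 and 12.36 in PC3 and 2.46, 2.18 and 2.16 in 786-O, at least 306-fold. COL1A1, the fibroblast collagen, was 4.54-fold higher in PC3. PTPRC and VWF, which define blood cells and endothelium, stayed between 2.09 and 2.45 in both lines.

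Most of the line difference was present without myoblasts. In the lines alone 9372 genes were called (75%), and 8267 were called in the same direction in both settings against 45 in opposite directions. Across the 12502 genes, which are not independent replicates, the line differences with and without myoblasts had a Pearson r of 0.976. The median absolute difference was 0.608 in co-culture and 0.586 alone. Of 1210 genes called in co-culture and not alone, 120 had a difference that itself changed.

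The change of the line difference with co-culture was called for 746 genes (5.97%), 425 toward 786-O (3.40%) and 321 toward PC3 (2.57%), and 2932 genes had an unadjusted p under 0.05. These genes were put in classes by group means, with means under the floor set to it. On these means the difference became larger for 328 genes, became smaller for 261 and had opposite signs for 151, while 6 lay under the floor in all 4 groups. The class can differ from the fitted values. ADIRF counted as smaller, although its fitted difference was -9.93 alone and -10.52 in co-culture. Of those 151 genes, 41 were called in opposite directions with and without myoblasts. The count was sensitive to single arrays. It was 1314 without replicate 2 and 1138 without replicate 3 of co-cultured 786-O, and 468, 401 and 395 without replicates 1, 2 and 3 of 786-O alone. It was 397 and 459 without replicates 1 and 3 of co-cultured PC3, and 410 and 399 without replicates 2 and 3 of PC3 alone. Each gene has 1 estimate of spread for the 4 groups together, so errors can be too small for a gene that hardly varied near the floor in 1 line.

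**Figure D5:**
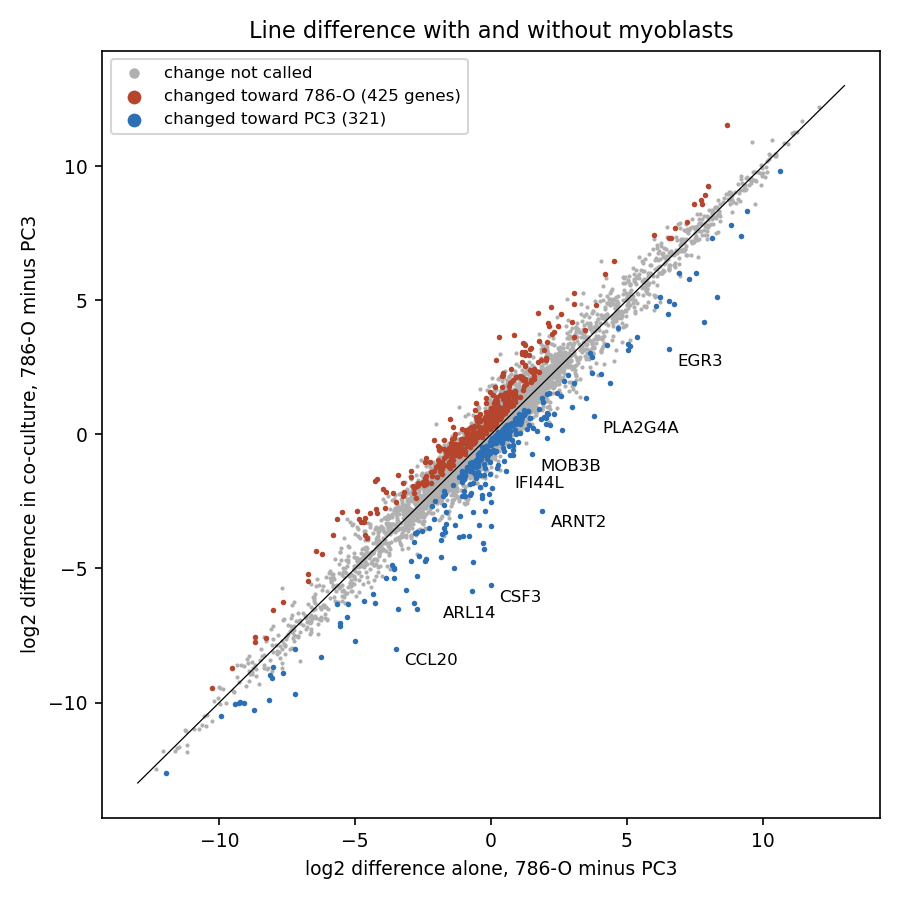
Log2 difference between the lines (786-O minus PC3) alone (horizontal) and in co-culture (vertical) for 12502 genes, with the 425 and 321 genes whose difference changed toward 786-O and PC3 coloured and the line of equality drawn. Most genes lie along the line of equality, and CSF3 and ARL14, whose fitted differences changed by -5.63 and -5.15, lie well below it.

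Genes with a larger difference in co-culture included inflammatory genes of PC3. The changes below are fitted values and no bounds where a line lay under the floor, so the change with signals below 16 counted as 16 is given beside them. CSF3, the neutrophil growth factor G-CSF, gave 7.96, 7.48 and 7.96 in co-cultured PC3, while all 9 other arrays lay between 2.16 and 2.18. The fitted change of the CSF3 difference was -5.63 (adjusted p = 1.78e-07), and -3.80 with the floor. CCL20 averaged 10.24 in co-cultured PC3 and 5.86 in PC3 alone, where its arrays ran from 4.74 to 6.73, against 2.25 and 2.35 in 786-O, a change of -4.49 (adjusted p = 0.000746), or -4.39 with the floor. ARL14, a small GTPase, changed by -5.15 (adjusted p = 0.000263), or -4.14 with the floor, with means of 8.14 and 3.14 in PC3 and 2.29 and 2.44 in 786-O. HAO1, a glycolate oxidase, the surface protein LYPD3 and OAS1 changed by -3.79, -3.48 and -3.59, or -3.78, -3.48 and -3.34 with the floor, with their 786-O arrays under the floor throughout. For all 6 genes, the co-cultured PC3 arrays stood above those of every other group.

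A smaller difference in co-culture was seen for EGR3, an immediate early transcription factor, which gave 5.69, 5.38 and 5.68 in co-cultured 786-O and 9, 9.04 and 8.61 in 786-O alone, with PC3 under the floor, a change of -3.36 (adjusted p = 1.25e-05), or -3.30 with the floor. PLA2G4A, which frees arachidonic acid, averaged 8.17 and 8.09 in 786-O but 7.50 in co-cultured and 4.30 in PC3 alone, and the lines did not pass the test in co-culture (adjusted p = 0.118). The actin regulator WIPF1 changed by -3.19, or -2.50 with the floor, with PC3 at 6.54 in co-culture and 3.30 alone. The hedgehog-binding HHIP, CFAP251 and PLPPR5 changed by 2.53, 2.57 and 2.50, with lower PC3 signals in co-culture than alone.

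Estimates of opposite sign were found for ARNT2, an alternative partner of HIF alpha subunits, although neither line lay clearly above the floor without myoblasts. ARNT2 gave 7.11, 7.48 and 7.42 in co-cultured PC3 and 2.17, 2.20 and 2.16 in PC3 alone, against 4.75, 3.57 and 5.15 and 4.12, 4.15 and 3.90 in 786-O, a change of -4.73 (adjusted p = 0.000177). With the floor, its difference was 0.06 alone and -2.85 in co-culture. IFI44L, an interferon-induced gene, averaged 7.75 and 5.95 in PC3 and 6.37 and 6.49 in 786-O, a change of -1.91. PID1 changed by -2.01 from a difference of 0.02 alone that was not called (adjusted p = 0.843), and MOB3B changed by -2.23. The MOB3B difference in co-culture was not called without replicate 2 of co-cultured 786-O (adjusted p = 0.0828) or without replicate 3 of co-cultured PC3 (adjusted p = 0.0922). DENND3 and LOC727820 changed by 2.09 and 1.71 toward 786-O, and the LOC727820 difference alone was not called (adjusted p = 0.125). Its difference in co-culture was 1.152, but 0.155 in the limma fit without probe sets ending in _x_at or _s_at (adjusted p = 0.737).

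Changes within the gene groups were uneven, against the background of 5.97%. Among NF-kappaB targets 12 of 30 changed, all toward PC3, among chemokines and receptors 5 of 13, all toward PC3, and among cytokines and receptors 8 toward PC3 and 2 toward 786-O of 28. A gene can be on more than 1 list, as CA9 was, so the counts of different groups may include the same genes. CXCL6 changed by -1.56 (adjusted p = 0.000779), IL33 by -1.04 (adjusted p = 0.00852) and IL1B by -0.69 (adjusted p = 0.0128). Among hypoxia targets 8 of 29 and among ATF4 response genes 7 of 32 changed, all toward 786-O, among them DDIT4 by 0.54 (adjusted p = 0.00333). Interferon response genes changed toward PC3 for 5 of 36, other patterning factors for 6 of 52 and mucosal defence genes for 4 of 21, with none of these groups changing toward 786-O. Immediate early and ERK feedback genes changed toward PC3 for 6 and toward 786-O for 2 of 29, and YAP and TEAD targets for 3 and 5 of 28. The HOX genes, nuclear receptors, tumour suppressors, ribosomal protein genes and stem and drug response markers had no called change.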

How the data were processed

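Linear signal intensities of 12 HG-U133 Plus 2 arrays, 3 in each of 4 groups, were used as deposited by the authors, and MAS5 is the tool the submitters' processing notes name, with no version and with the scaling not given in the sources used here. The deposited p-values of the authors' comparisons and their deposited fold score were not used. Control probe sets (62) and those with no symbol (13166) or several (1522) were left out, which kept 39925 probe sets. Of these, 38545 (96.5%) had a gene ID in the current gene table, which gave 7383 of them an updated symbol. Intensities were put on the log2 scale with no constant added, by a step made here from the deposited signals. A gene was represented by its probe set with the highest mean, and genes had to exceed the median probe set (2.65) in their mean over 12 arrays, which left 12502. A limma 3.58.1 (R 4.3.3) model of the 4 groups with an intensity trend gave the line difference in co-culture, the difference alone and the change between them, with Benjamini-Hochberg adjustment over all genes. It has 8 residual degrees of freedom, and 3 arrays a group limit its precision.

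The text names the 15 largest differences per direction, up to 6 called members of each list, up to 6 genes of each class of change and the markers of the lines, with signals under 16 counted as 16 for ranking; Y-linked genes and a few items withheld from this text are not reported here. The lists and named genes were chosen with earlier results of these data known. Simulated data held 12502 genes with the same mean in all 4 groups, apart from changes put into co-cultured 786-O. Changes of 0.5, 1 and 2 on the log2 scale were given to 67, 67 and 66 genes. Of these, 59.7, 82.1 and 98.5% were recovered for the line difference, with 6.43% of calls false. For the change with co-culture the shares were 35.8, 65.7 and 90.9%, with 7.25% false. In the real data 76.2% of genes were called for the line difference, so the simulated shares may not hold there. The deviations of same-numbered co-culture arrays of the 2 lines from their group means correlated at 0.00884, -0.0939 and -0.123. The replicate numbers were therefore not used to pair the samples in the main fit. Pairing of co-culture arrays with arrays of the same line alone was not examined. Alternatives covered scaling, filters, probe set choice, the fit and each array left out. Promoter sequences came from RefSeq, and figures were drawn with matplotlib 3.10.9.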

Additional observations from a re-analysis of the deposited data

Results flagged for a closer look

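The difference between the lines was itself tested for a change with co-culture, and 746 genes passed in the limma fit. The values below are the changes of the log2 difference, 786-O minus PC3, each from an interaction term over 12 arrays, and no explanation of them was tested.

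Genes whose difference grew were CCL20 (-4.49), ARL14 (-5.15), CSF3 (-5.63), HAO1 (-3.79), LYPD3 (-3.48) and OAS1 (-3.59), all toward PC3, and their 786-O arrays lay under the floor throughout. These fitted values have no order, since with signals below 16 counted as 16 the changes were -4.39, -4.14, -3.80, -3.78, -3.48 and -3.34. Genes whose difference shrank toward PC3 were EGR3 (-3.36), WIPF1 (-3.19) and PLA2G4A (-3.12), and those whose difference shrank toward 786-O were CFAP251 (2.57), HHIP (2.53) and PLPPR5 (2.5). For EGR3 the arrays of 786-O differed between the settings, and for the other 5 those of PC3.

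Estimates of opposite sign with and without myoblasts were found for ARNT2 (-4.73), MOB3B (-2.23), PID1 (-2.01) and IFI44L (-1.91) toward PC3 and for DENND3 (2.09) and LOC727820 (1.71) toward 786-O. Of these, PID1 (adjusted p = 0.843) and LOC727820 (adjusted p = 0.125) had no called difference alone in the limma fit, and that of ARNT2 alone was 0.06 with the floor. The change of LOC727820 had an adjusted p of 0.0435, and replicate 2 of co-cultured 786-O held its highest signal at 9.75. Without probe sets ending in _x_at or _s_at, its difference in co-culture was 0.155 and not called.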

How the results depend on the processing

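The main counts were 4818 genes higher in 786-O, 4704 higher in PC3, 4128 called at 2-fold or more and 746 with a changed difference. Genes past the 75th percentile of signals alone gave 3174, 3049, 1588 and 478, with fewer genes tested, and an adjusted p under 0.01 gave 230 changes. Leaving out 1 array gave 4525 to 4869, 4434 to 4946, 4066 to 4195 and 395 to 1314, the last being highest without replicate 2 of co-cultured 786-O; the cause was not tested. With the replicate block the counts were 4744, 4635, 4132 and 520, although pairing by number was examined only between the co-cultured lines. Of the named genes, 2 reversed: ARNT at -0.181 with probe sets averaged (adjusted p = 0.158) and LAMA5 at 0.846 without probe sets ending in _x_at or _s_at (adjusted p = 0.0189). Medians of the lists depended on the filter and the probe sets, and 27 of 40 moved by over 1.5 times or changed sign with no filter. Their signs differed for 12 lists of 39 with the 75th percentile filter, 8 of 40 without those probe sets and 5 of 40 without replicate 2 of co-cultured 786-O, with collagens at -1.13 and 1.35 under the first. Fold bounds depend on the floor, and a floor of 32 multiplied 119 of them by 0.498 to 0.632. No further depth limit can be given for arrays.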
